A study of Mus musculus with 6 samples.

Results

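Genes that mark tissue macrophages or their alternative activation were described in whole skin of JunBΔep and control mice. The 10 genes, of 23951 in the expression table, were listed by name, with earlier results of these data known: Retnla, Arg1, Chi3l3, Mrc1, Cd163, Folr2, Emr1, Csf1r, Cd68 and Cd209f. Of them, 9 were found under these symbols, and Chi3l3 under its newer symbol Chil3. RNA sequencing had been done on whole skin of 3 mice per genotype, all C57Bl/6 and 6 to 7 months old. The JunBΔep mice (labelled JunB dep) lack JunB in cells that express keratin 5, which are chiefly keratinocytes. The controls (labelled JunB +/+) had intact JunB. The deletion is thus aimed at epithelium and not at macrophages, and the study took mutant skin from lesions.

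Macrophages of the dermis clear debris and pathogens and are kept alive by signals through the receptor Csf1r. In the presence of interleukin 4 or interleukin 13 the receptor chain Il4ra activates Stat6, and macrophages then make a set of products called alternative activation genes, among them Arg1, Retnla and Chil3 in the mouse. Several of these products are not particular to macrophages: Retnla is abundant in fat tissue, Arg1 is the urea cycle arginase of the liver, and Chil3 is also made by neutrophil precursors. In whole skin, fewer cells of a type and less RNA per cell cannot be told apart.

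All values are FPKM, a count of fragments scaled to transcript length and to library size, and are given for replicates 0, 1 and 2 of each group in that order. Fold changes are differences of mean log2(FPKM + 0.5), JunBΔep minus control, tested with limma over the 17021 genes that averaged 0.1 FPKM or more, with Benjamini-Hochberg adjustment. The 6 libraries summed to 481100 to 630400 FPKM, with 18418 to 18873 genes above 0, and the number of reads is unknown. Junb itself stood at 59.3, 72.4 and 56.9 FPKM in control skin against 130, 42.8 and 28.1 FPKM in mutant skin. The highest of these values belonged to the library labelled JunBΔep replicate 0. Whole skin also holds cells in which JunB is not deleted, so this value cannot decide whether the label is right. The members' differences are also given without that library. That library stood apart in other ways: 5 mucosal epithelium markers summed to 3798 FPKM in it and to 0.394 to 1.41 FPKM in the other 5 mice, and 8 adipocyte markers to 70.1 FPKM against 1479 to 10460. All 10 genes passed the filter on low values in this table.

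None of the 10 genes passed the test at an adjusted p of 0.05 in limma. Over all genes, 235 of 17021 passed in the lower direction (1.38%) and 0 in the higher direction (0.0%). At an unadjusted p below 0.05, 2 of the 10 were lower in JunBΔep skin and 0 higher, beside 6.13% lower and 1.43% higher of all genes. Both were also the members whose mutant values all lay below every control value, Folr2 and Cd209f, where 9.16% of all genes had lower groups that did not overlap and 5.62% higher ones. Of the 10, 9 had a negative fold change and 1 a positive one, with a median of -0.67 on the log2 scale, while the median over all genes tested was 0.03. Without the library labelled JunBΔep replicate 0 all 10 were negative (median -0.97), and without control replicate 0 7 were negative and 3 positive (median -0.39), a comparison of counts added after the data were seen. Lower groups without overlap numbered 4 of 10 in the former comparison, beside 2215 of 17021 genes. In the latter they numbered 2 of 10, beside 1762 genes. With 3 mice per group a comparison cannot reach an exact two-sided permutation p below 0.1.

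**Figure D1:**
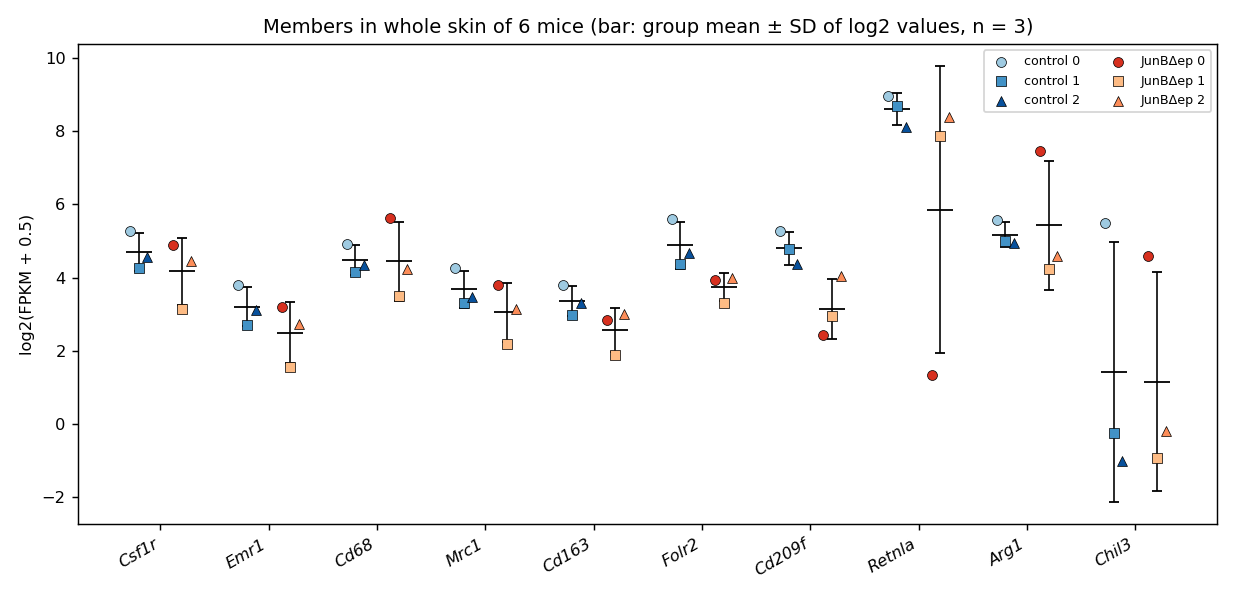
The vertical axis is log2(FPKM + 0.5) and each point is 1 mouse, for the 10 genes along the horizontal axis, with bars at each group's mean ± SD (n = 3). For Folr2 and Cd209f all 3 mutant points (red and orange) lie below all 3 control points (blue).

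The spread within a group was large and was shared by many of the genes. Control replicate 0 held the highest control value for all 10 genes and the highest of all 6 mice for 8 of them. For Folr2 that value was 1.92 times the next control and 2.40 times the lowest. JunBΔep replicate 1 was the lowest of the 3 mutants for 8 genes and the lowest of the 6 mice for 7. The library labelled JunBΔep replicate 0 was the highest of all for Arg1 and Cd68 and the lowest of all for Retnla and Cd209f. No order of the mice therefore held for all 10 genes. The sum of 5 pan-leukocyte markers was also highest among controls in replicate 0 and lowest among mutants in replicate 1, with 176, 141 and 95.5 FPKM in control skin and 293, 54.5 and 113 FPKM in mutant skin, and their part in these values was not tested.

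Stretches of 250 bases upstream of the start site are shown for genes that behaved differently from each other: Retnla, an alternative activation product, Cd209f, which was lower in all mutants, and Cd68, which was not. They come from the RefSeq promoter table (build GRCm38.p6), which held 8 windows for 7 of the 10 genes and none for Arg1, Emr1 or Csf1r. Capitals mark TTC and GAA parted by 4 bases, the spacing preferred by Stat6, in Retnla and TGANTCA, the element bound by AP-1 dimers such as those with JunB, in the other two. The windows lie at chr16:48842359-48842608 on the plus strand (Retnla), chr8:4105765-4106014 on the minus strand (Cd209f) and chr11:69666171-69666420 on the minus strand (Cd68).
Retnla: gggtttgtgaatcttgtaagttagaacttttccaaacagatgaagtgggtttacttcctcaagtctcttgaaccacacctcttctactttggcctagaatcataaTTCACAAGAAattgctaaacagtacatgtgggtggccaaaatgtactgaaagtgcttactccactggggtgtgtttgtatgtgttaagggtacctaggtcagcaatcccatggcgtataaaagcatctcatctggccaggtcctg
Cd209f: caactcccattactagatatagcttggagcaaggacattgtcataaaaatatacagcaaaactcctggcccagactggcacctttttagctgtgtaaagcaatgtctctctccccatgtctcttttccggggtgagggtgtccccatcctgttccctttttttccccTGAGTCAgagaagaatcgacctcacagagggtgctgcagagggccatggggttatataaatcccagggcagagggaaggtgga
Cd68: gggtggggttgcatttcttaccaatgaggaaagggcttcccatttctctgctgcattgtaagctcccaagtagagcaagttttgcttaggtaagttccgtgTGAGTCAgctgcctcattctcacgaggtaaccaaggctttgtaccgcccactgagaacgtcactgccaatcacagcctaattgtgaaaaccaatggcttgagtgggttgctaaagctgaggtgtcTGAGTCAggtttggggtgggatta
In full windows, which run 50 bases past the start, the Stat6 spacing stood in Retnla alone among the 8, with its first base at position -145, against 6.95% of all 32851 windows in the table. The letters TGANTCA were present in Cd209f once, in Cd68 2 times and in 1 of the 2 Folr2 windows, against 7.81% of all windows. Both motifs read the same way on either strand in their fixed letters, and no window of the 8 held both. The core GAGGAA, searched on both strands for the myeloid factor PU.1, was found in Mrc1 (3 times), Cd68 (2 times) and Retnla (once), against 28.3% of all windows. The 3-base spacing TTCNNNGAA of other Stat proteins was found in the Chil3 window and in 8.30% of all. These are matches of letters only.

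The genes that define macrophages in any state came first. Csf1r, the receptor for Csf1 and Il34 (chr18:61265226-61291803 on the plus strand in the mm9 build), was at 38.2, 18.6 and 23.03 FPKM in control skin and 29.5, 8.35 and 21.6 FPKM in JunBΔep skin. Its groups overlapped, and the difference of -0.52 (SE 0.51) had an adjusted p of 0.737 in limma. It was -0.89 without the library labelled JunBΔep replicate 0, -0.01 without JunBΔep replicate 1 and -0.24 without control replicate 0. Emr1, the adhesion receptor known as F4/80 (chr17:57498109-57622952, plus strand), was less abundant by this length-corrected measure, with 13.3, 6.08 and 8.17 FPKM in control skin and 8.65, 2.47 and 6.09 FPKM in mutant skin. Both genes placed the 6 mice in the same order, and Emr1 differed by -0.71 (SE 0.49, adjusted p 0.722), with -1.06, -0.25 and -0.42 when the same mice were left out in turn. Cd68, a lysosomal glycoprotein of phagocytes (chr11:69477715-69479655, minus strand), ranked the mice as they did apart from 1 mutant library. It measured 29.95, 17.2 and 19.98 FPKM in control skin and reached 48.7 FPKM within the library labelled JunBΔep replicate 0, with 10.8 and 18.3 FPKM in the remaining mutants. The mean difference was -0.03 (SE 0.55, adjusted p 0.987), and without that library it was -0.62.

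Receptors that mature tissue macrophages carry on their surface formed the next group. Mrc1, the mannose receptor (chr2:14151041-14253684, plus strand), had control values of 18.6, 9.43 and 10.7 FPKM and mutant values of 13.5, 4.06 and 8.37 FPKM. The range of the mutants reached into that of the controls, and the difference was -0.63 (SE 0.47, adjusted p 0.722). Without the library labelled JunBΔep replicate 0 it was -1.02, without JunBΔep replicate 1 -0.20 and without control replicate 0 -0.35. Cd163, the scavenger receptor for haemoglobin bound to haptoglobin (chr6:124254669-124280545, plus strand), was 13.3, 7.45 and 9.34 FPKM in control skin and 6.70, 3.16 and 7.46 FPKM in mutant skin. Here only the highest mutant and the lowest control touched, and the difference of -0.79 (SE 0.38, 95% interval -1.70 to 0.13) had an unadjusted p of 0.07998 and an adjusted p of 0.719. It was -0.93 without the library labelled JunBΔep replicate 0, -0.44 without JunBΔep replicate 1 and -0.57 without control replicate 0.

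Folr2, the folate receptor beta of resident macrophages (chr7:108988512-108993831, minus strand), separated the groups. Control skin held 48.3, 20.1 and 25.1 FPKM (mean 31.2 ± 15.0, SD, n = 3) and JunBΔep skin 14.7, 9.40 and 15.5 FPKM (mean 13.2 ± 3.32, SD, n = 3). Every mutant lay below every control, with a difference of -1.14 (SE 0.37, 95% interval -2.05 to -0.23). In limma the unadjusted p was 0.0221 and the adjusted p 0.457, so the difference did not pass the test over all genes. The sample names fall into a lower and a higher number series, whose meaning the labels do not give, and the difference was -1.06 within the lower one (the library labelled JunBΔep replicate 0 against control replicates 0 and 1) and -1.03 within the higher one (the other two mutants against control replicate 2). Without the library labelled JunBΔep replicate 0 it was -1.23, without JunBΔep replicate 1 -0.92 and without control replicate 0 -0.78.

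**Figure D2:**
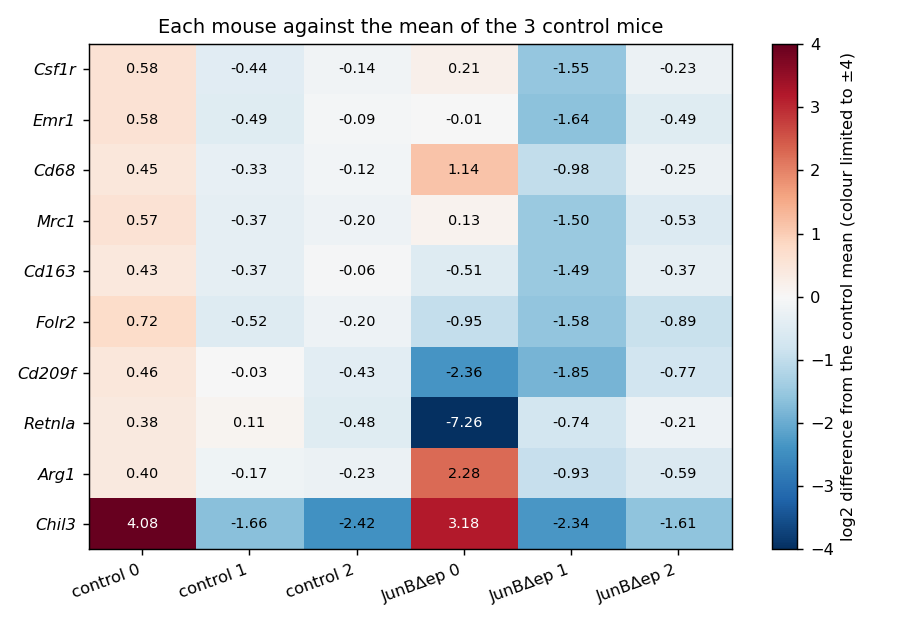
Heat map of the 10 genes (rows) in the 6 mice (columns), where each cell gives the difference from the mean of the 3 controls in log2(FPKM + 0.5) and red is higher, blue lower, with colour limited to ±4. The mutant cells of Folr2, Cd209f, Cd163, Emr1 and Retnla are all negative, those of Emr1 from -1.64 to -0.01 and those of Retnla from -7.26 to -0.21. Those of Arg1 run from -0.93 to 2.28.

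Cd209f, a C-type lectin of the DC-SIGN family, had the lowest unadjusted p of the 10 genes. Its 3 control values were 38.1, 26.9 and 20.2 FPKM (mean 28.4 ± 9.05, SD, n = 3), and its mutant values 4.94, 7.29 and 15.9 FPKM (mean 9.37 ± 5.76, SD, n = 3). All mutants were below all controls, with the library labelled JunBΔep replicate 0 the lowest. The difference was -1.66 (SE 0.45, 95% interval -2.77 to -0.56), with an unadjusted p of 0.0102 and an adjusted p of 0.297 in limma. Within the lower and higher number series it was -2.58 and -0.88. It was -1.31 without the library labelled JunBΔep replicate 0 and -1.43 without control replicate 0.

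Cd209f belongs to a cluster of related lectin genes on mouse chromosome 8, and the neighbours on the list of other alternative activation genes had a like pattern. In mm9, Cd209f lies at chr8:4102787-4105843 on the minus strand and Cd209g at chr8:4134733-4137707 on the plus strand. Cd209a, Cd209e, Cd209d and Cd209b lie on the minus strand between positions 3743395 and 3926844. All 6 of these genes were lower in every mutant than in every control, beside 9.16% of all genes, and none passed the adjusted threshold. The seventh Cd209 gene of the table, Cd209c, was on no list and was looked at after the others, and its groups overlapped at 10.3, 7.68 and 8.01 FPKM against 17.8, 6.65 and 9.80 FPKM (0.28, adjusted p 0.797). Cd209d, the most abundant, was at 54.1, 38.6 and 34.1 FPKM in control skin and 5.88, 7.59 and 19.7 FPKM in mutant skin, a difference of -2.05 (SE 0.46, adjusted p 0.160). Cd209e, with 12.8, 5.75 and 5.99 FPKM against 1.11, 0.865 and 2.10 FPKM, had the lowest adjusted p of the 6, 0.0888, with a difference of -2.19 (SE 0.41). Cd209a (26.1, 15.2 and 17.8 FPKM against 2.86, 4.12 and 12.2 FPKM) is known from dendritic cells as well as macrophages. It differed by -1.76 (SE 0.52, adjusted p 0.375). Cd209b and Cd209g differed by -1.67 (adjusted p 0.515) and -1.81 (adjusted p 0.221). From the control mean, the mutants lay at -2.83, -1.60 and -0.57 for Cd209b and at -2.49, -1.90 and -1.04 for Cd209g. In all 6 genes JunBΔep replicate 2 was the highest mutant.

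Within the family, 1 pair with Cd209f is close in sequence. Cd209f and Cd209g shared 518 of 581 aligned coding bases (89.2%), so reads may have been split between them, while Cd209f and the other 4 were 54.1% to 60.4% identical. Some dendritic cell markers also separated the groups. H2-Ab1, an MHC class II chain, was at 493, 433 and 302 FPKM in control skin and 114, 121 and 288 FPKM in mutant skin, with no overlap (-1.34, adjusted p 0.418), and Flt3, a dendritic cell growth factor receptor, differed by -0.65 (adjusted p 0.521). Epcam (0.87, adjusted p 0.191), found on Langerhans cells and on epithelium, and Ccr7 (0.78, adjusted p 0.446), the receptor of migrating dendritic cells, lay higher in all mutants. Of the 8 Langerhans and dendritic cell markers, 3 were lower with no overlap and 2 higher, beside 9.16% and 5.62% of all genes. Their median was -0.17. Xcr1 was also among the lower ones (-0.14, adjusted p 0.740), and Cd207, Zbtb46 and Itgax overlapped. The 8 markers summed to 384 to 560 FPKM in control skin and 245 to 395 FPKM in mutant skin. Most of each sum was H2-Ab1 and Epcam. All 8 markers were above 0 in every mouse, and their part in the Cd209 values was not tested.

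**Figure D3:**
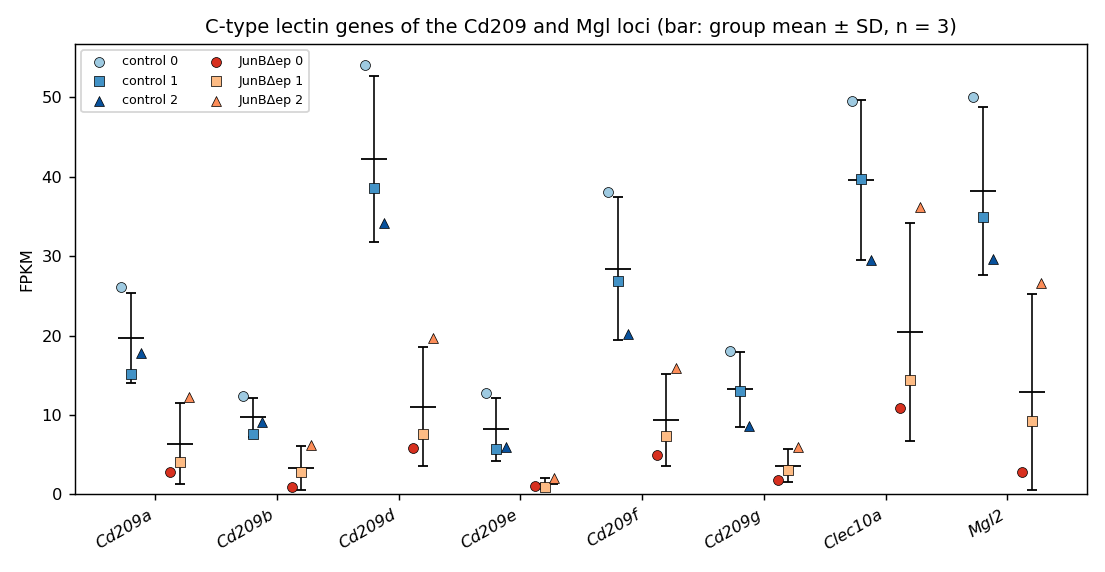
FPKM (linear axis from 0) of 6 Cd209 genes, Clec10a and Mgl2, with a point for each mouse and bars at each group's mean ± SD (n = 3). In the 6 Cd209 genes and Mgl2 the 3 mutant points lie below the 3 control points, with JunBΔep replicate 2 nearest to the controls, and in Clec10a the groups overlap.

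Among the products of alternatively activated macrophages, Retnla and Arg1 varied little between controls (SD 0.44 and 0.35 on the log2 scale) and widely between mutants (SD 3.93 and 1.76), through the library labelled JunBΔep replicate 0. Retnla, a secreted resistin-like protein also called Fizz1 (chr16:48842665-48844574 on the plus strand in mm9), was the most abundant of the 10 genes, with 502, 416 and 277 FPKM in control skin. In the mutants it was at 2.02, 232 and 334 FPKM. The library labelled JunBΔep replicate 0 thus lay at -7.26 log2 units from the control mean, while the remaining mutants lay at -0.74 and -0.21. JunBΔep replicate 1 was also below all controls, and only JunBΔep replicate 2 lay within their range. The difference of -2.74 (SE 1.85, 95% interval -7.25 to 1.78, adjusted p 0.722) shrank to -0.47 without that library. Within the lower number series it was -7.50, and within the higher one 0.01.

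The 3 genes whose pattern over the 6 mice was closest to Retnla were Car3, a carbonic anhydrase of fat and muscle, and the fat cell genes Plin1 and Lep. Closeness was the root mean square difference of centred log2(FPKM + 0.5) values, and it was 0.54, 0.56 and 0.64. Plin1, the coat protein of lipid droplets, was at 105, 86.7 and 57.8 FPKM in control skin and 0.228, 63.1 and 209 FPKM in mutant skin. The sum of the 8 adipocyte markers was 2309, 4333 and 1479 FPKM in control skin and 70.1, 2442 and 10460 FPKM in mutant skin. It was lowest in the same library as Retnla, whose part in the Retnla value was not tested. Retnlg, a neighbouring resistin-like gene with 83.6% identical coding bases, went the other way in that library, with 418 FPKM there, 18.6 FPKM in control replicate 0 and 0.133 to 1.34 FPKM elsewhere.

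Arg1, the arginase that competes with nitric oxide synthase for arginine (chr10:24635014-24647276, minus strand), was at 47.0, 31.5 and 30.3 FPKM in control skin and 175, 18.5 and 23.4 FPKM in mutant skin. One mutant was above and the other two were below all controls. The mean difference was therefore small, 0.25 (SE 0.85, adjusted p 0.924), and it turned to -0.76 without the library labelled JunBΔep replicate 0. Nos2, the inducible nitric oxide synthase of classically activated macrophages, was highest in the same library, at 17.7 FPKM against 0.253 to 1.14 FPKM in the other 5 mice, and differed by 1.30 (adjusted p 0.724). The closest patterns to Arg1 were those of Cd33 (0.11), a myeloid lectin, Slc16a1 (0.14), a lactate transporter, and Mefv (0.15), the myeloid protein pyrin. The 10 liver markers summed to 2005 FPKM in control replicate 0, to 19.4 and 33.2 FPKM in the other controls and to 3.25, 44.1 and 312 FPKM in the mutants. A single gene, Cyp2e1, gave 282 FPKM of the sum in JunBΔep replicate 2, where Alb was at 18.8 FPKM. It gave 16.1 and 29.5 FPKM in control replicates 1 and 2 and 33.1 FPKM in JunBΔep replicate 1. The part of the liver markers in the Arg1 values was not tested.

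Chil3, the chitinase-like protein Ym1 (chr3:105950472-106022425, minus strand), was near absent in most mice. It was at 44.5, 0.344 and 0 FPKM in control skin and 23.7, 0.0262 and 0.372 FPKM in mutant skin, so that 1 mouse of each group held nearly all of it. The difference of -0.26 had an SE of 2.18 and an adjusted p of 0.972, and the 95% interval ran from -5.57 to 5.06. It was -1.98 without the library labelled JunBΔep replicate 0, and its sign turned without control replicate 0 (1.78), JunBΔep replicate 1 (0.78) or JunBΔep replicate 2 (0.42). Its closest patterns were Cd177 (0.84), a neutrophil surface protein, Ngp (0.89), a neutrophil granule protein, and Car2 (1.00), a carbonic anhydrase. Control replicate 0 held Ngp at 196 FPKM, the library labelled JunBΔep replicate 0 at 21.6 FPKM and the other 4 mice at 0.0182 to 0.288 FPKM. The granule gene Mpo was at 32.0 FPKM in control replicate 0 alone and at 0.0615 FPKM or less elsewhere.

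The neutrophil markers were summed to see whether they singled out the same mice. The 11 in the table summed to 482, 32.6 and 200 FPKM in control skin and 428, 32.5 and 135 FPKM in mutant skin, so the sums were highest in the 2 mice with the most Chil3. Ltf, which glands also make, was at 175 FPKM in control replicate 2, 86.5 FPKM in JunBΔep replicate 2 and 4.66 FPKM for the library labelled JunBΔep replicate 0. Elane, a granule protease, reached 35.7 FPKM in control replicate 0, but its entry was 0 for the library labelled JunBΔep replicate 0. Il1f9, which keratinocytes make too, gave 198 FPKM of that library's sum, and without it the sums were 463, 16.6 and 187 FPKM against 230, 11.5 and 107 FPKM. The median difference of the 11 was -0.89 without the library labelled JunBΔep replicate 0 and 1.495 without control replicate 0. Their part in the Chil3 values was not tested. Chil4, which overlaps Chil3 in the mm9 annotation on the same strand and shares 1141 of 1197 aligned coding bases (95.3%) with it, reached 2.89 FPKM within the library labelled JunBΔep replicate 0, with 0.0152 FPKM in control replicate 0 and 0 in the others. Reads of these 2 genes may have been split.

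**Figure D4:**
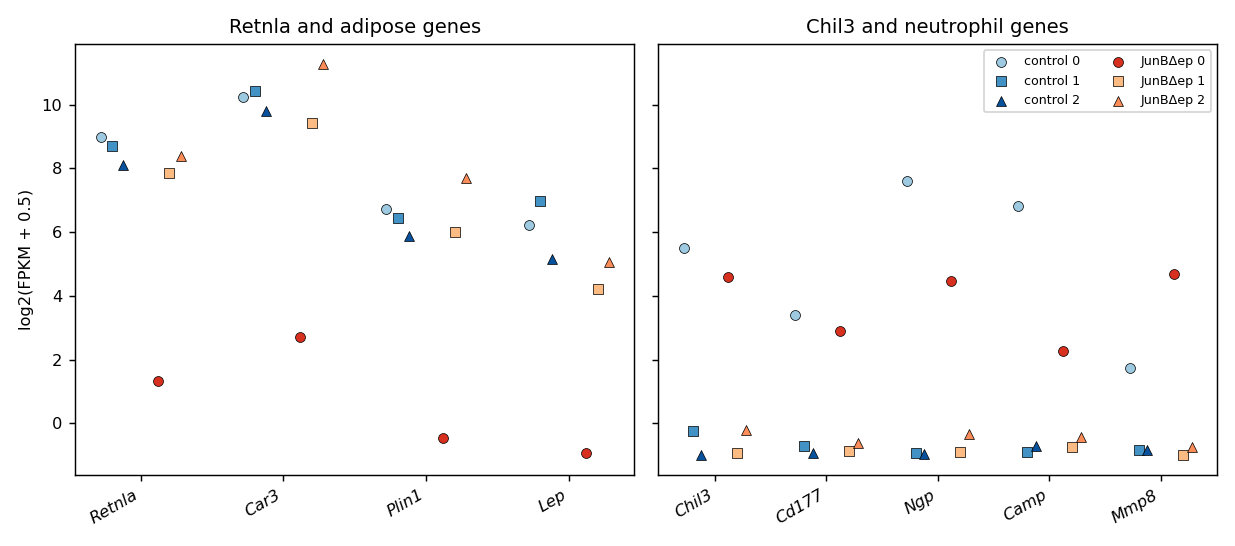
The vertical axis is log2(FPKM + 0.5) and each point is 1 mouse, for Retnla beside Car3, Plin1 and Lep (left) and for Chil3 beside the neutrophil genes Cd177, Ngp, Camp and Mmp8 (right). The library labelled JunBΔep replicate 0 is lowest in all 4 genes on the left, and it and control replicate 0 are the 2 highest in all 5 genes on the right, while Elane, Ltf, Hdc and Il1f9 of the same list, which are not drawn, do not have both mice on top.

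Each gene was then divided by Csf1r of the same mouse, a comparison added after the data were seen and given with no test. Emr1 per Csf1r was 0.349, 0.327 and 0.355 in controls and 0.294, 0.295 and 0.282 in mutants, a narrow range within each group. The ratio was lower in all mutants, as was that of Cd209f (1.00, 1.45 and 0.878 against 0.168, 0.873 and 0.735). These were 2 of 9 genes, beside 2.60% of all genes tested. The members were chosen as macrophage genes, and some vary with Csf1r across the mice. The share of all genes is therefore no fair yardstick for them. Mrc1 per Csf1r hardly varied and overlapped, at 0.487, 0.507 and 0.464 in controls and 0.459, 0.486 and 0.387 in mutants. Folr2 per Csf1r, at 1.27, 1.08 and 1.09 against 0.501, 1.13 and 0.717, no longer separated the groups, since JunBΔep replicate 1 lay within the control range. Cd68 per Csf1r was 0.785 to 0.926 in controls and 1.65, 1.29 and 0.846 in mutants. Divided instead by the geometric mean of the complement genes C1qa, C1qb and C1qc, Mrc1, Cd163, Emr1 and Cd209f were lower with no overlap. These were 4 of 10 genes, beside 3.34% of all, a share with the same limit.

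**Figure D5:**
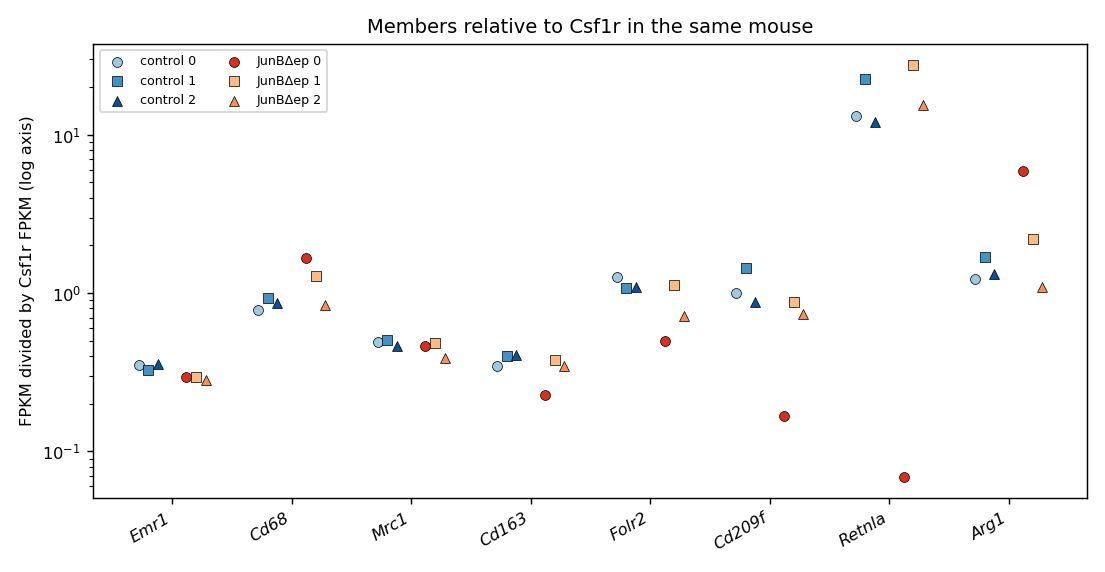
FPKM of 8 genes divided by FPKM of Csf1r in the same mouse, on a log axis, with a point for each mouse. Emr1 and Cd209f lie lower in all 3 mutants, and Mrc1 spans only 0.387 to 0.507 over the 6 mice.

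By nearest pattern, Csf1r, Emr1 and Mrc1 lay with each other and Cd68 did not. Emr1 and Mrc1 were each other's closest gene (0.10), and Csf1r was closest to C1qc (0.10), Emr1 (0.11) and Mrc1 (0.13). Cd163 was closest to Pltp (0.12), a phospholipid transfer protein, and Folr2 to Kmo (0.15), an enzyme of tryptophan breakdown. Cd68 lay nearest to Arl11 and Tifa (both 0.08), and Cd209f to its neighbour Cd209g (0.11). Retnla and Chil3 were the pair farthest apart of the 10, at 4.56. Each measure rests on the same 6 mice, whose fat, muscle and other tissue markers differed widely.

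Of 26 other resident macrophage genes, 17 were lower and 9 higher in JunBΔep skin, with a median of -0.26 and 0 past the adjusted threshold in limma. Without the library labelled JunBΔep replicate 0 they were 24 and 2 (median -0.62), and without control replicate 0 13 and 13 (median -0.02). At an unadjusted p below 0.05 there were 2 lower and 0 higher, beside 6.13% and 1.43% of all genes. Timd4, a receptor for dying cells on long-lived macrophages, was at 2.18, 1.30 and 1.12 FPKM in control skin and 0.0514, 0.853 and 0.703 FPKM in mutant skin, without overlap (-1.04, SE 0.41, adjusted p 0.639). Its mutants lay at -1.85, -0.55 and -0.72 from the control mean. Lyve1 and Stab1, receptors that macrophages share with lymphatic and sinusoidal endothelium, differed by 0.12 and 0.10. Both rested on the library labelled JunBΔep replicate 0, at 1.19 and 1.25 from the control mean. The other mutants lay at -0.71 and -0.13 for Lyve1 and at -0.98 and 0.03 for Stab1. Lyve1 was at 7.68, 2.91 and 4.23 FPKM against 11.1, 2.61 and 4.16 FPKM, which put the 6 mice in the same order as Cd68. Of the 26, Timd4 was the 1 gene with lower groups that did not overlap, a share below the 9.16% of all genes. This count was 4 of 26 without the library labelled JunBΔep replicate 0, beside 2215 of 17021 genes, so the share was then not lower. Divided by Csf1r, Stab1 was higher in all mutants, at 0.257, 0.333 and 0.272 in control skin against 0.608, 0.410 and 0.342 in mutant skin. Divided by C1q it was higher in all mutants too. Of all genes 5.79% and 3.61% were, shares with the limit given above for such ratios. Lyve1 overlapped under both divisions.

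Of the 20 other alternative activation genes tested, 11 were lower and 9 higher, with a median of -0.19, 0 past the adjusted threshold and 7 lower with no overlap, beside 9.16% of all genes. The median was -0.72 without the library labelled JunBΔep replicate 0 and 0.06 without control replicate 0. Besides 5 Cd209 genes these were Mgl2 and Ccl24. Mgl2, a galactose-type lectin of dermal macrophages and dendritic cells, was at 50.1, 34.9 and 29.7 FPKM in control skin and 2.75, 9.22 and 26.6 FPKM in mutant skin (-1.99, SE 0.75, adjusted p 0.584). Its mutants lay at -3.54, -1.96 and -0.48 from the control mean, farthest in the library labelled JunBΔep replicate 0. Its paralog Clec10a, 91.1% identical over coding bases, was at 49.6, 39.8 and 29.5 FPKM against 10.9, 14.4 and 36.1 FPKM, with overlap (adjusted p 0.677). Ccl24, a chemokine for eosinophils, was tightly grouped in the mutants, at 3.52, 3.38 and 3.43 FPKM, below 10.9, 8.45 and 5.96 FPKM in control skin (-1.14, SE 0.26, adjusted p 0.161).

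For genes of the signal upstream, the balance of higher and lower mRNA depended on 1 library. The activity of the signal was not tested. Of 12 genes of interleukin 4 and interleukin 13 signalling, 8 were higher and 4 lower, with a median of 0.16, and 0 had an unadjusted p below 0.05 or passed the adjusted threshold. Without the library labelled JunBΔep replicate 0, 3 were higher and 9 lower, with a median of -0.13. Il4ra was at 12.1, 16.5 and 9.20 FPKM in control skin and 76.7, 10.8 and 12.3 FPKM in mutant skin, with 1 library high (0.81, adjusted p 0.734). Stat6 differed by 0.17, with mutants at 0.59, -0.19 and 0.12 from the control mean. Il4 and Il13 themselves stayed below 1 FPKM in all 6 mice. Among 10 growth and lineage factors 6 were higher and 4 lower, with a median of 0.19, and without that library 4 and 6, with a median of -0.04. The Csf1r ligand Csf1 was at 17.8, 18.6 and 14.1 FPKM against 15.8, 9.15 and 16.9 FPKM (-0.30), and Il34, the ligand that keratinocytes make, was at 37.9, 54.1 and 23.6 FPKM against 12.4, 23.1 and 44.5 FPKM (-0.63). Neither ligand separated the groups.

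Of the 14 classical activation genes tested, 12 were higher and 2 lower, with a median of 0.86 and 0 past the adjusted threshold. Without the library labelled JunBΔep replicate 0 this turned to 3 higher and 11 lower, with a median of -0.17. Cxcl9, an interferon gamma target, was the one with groups that did not overlap, at 1.47, 0.896 and 0.9754 FPKM in control skin and 2.69, 1.67 and 3.81 FPKM in mutant skin (0.96, SE 0.32, adjusted p 0.474). Higher groups without overlap were seen in 5.62% of all genes. Il1b, which reached 406 FPKM within the library labelled JunBΔep replicate 0 and lay between 1.28 and 3.37 FPKM elsewhere, was among the 12. Of the 7 monocyte markers, 3 were higher and 4 lower, with a median of -0.21, which was -0.75 without that library and 0.55 without control replicate 0. Among them Chil1, a chitinase-like relative of Chil3 that epithelium also makes, was at 3.80, 0.613 and 1.16 FPKM in control skin and 872, 7.49 and 29.7 FPKM in mutant skin (4.90, adjusted p 0.515). Its mutants lay at 8.77, 2.00 and 3.92 from the control mean, so the size leaned on the library labelled JunBΔep replicate 0.

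Skeletal muscle RNA differed between the groups. Of the 10 skeletal muscle markers 8 passed the adjusted threshold in limma, all lower, with a median of -3.28, and their sums were 18190 to 25110 FPKM in control skin and 1732 to 4181 FPKM in mutant skin. These calls were lost with the replicate block, with the block on the number series and without any one control or JunBΔep replicate 1, where 0 of all genes passed. The median itself was -2.95 without the library labelled JunBΔep replicate 0 and -3.29 without control replicate 0, with all 10 lower and no overlap. Liver and adipocyte markers had medians of -1.91 and -1.84 with 0 past the threshold, and each rested on 1 library. Without control replicate 0 the liver median was 0.10, and without the library labelled JunBΔep replicate 0 the adipocyte median was 0.56. Of the 8 keratinocyte markers 4 were higher and 4 lower (1 and 7 without the library labelled JunBΔep replicate 0), with Dsg1a, a desmosome protein, lower without overlap (-0.65, adjusted p 0.257). Mast cell, eosinophil and T cell markers had medians of -0.35, -0.35 and -0.22 with 0 past the threshold. The mast cell median was -0.57 without the library labelled JunBΔep replicate 0, and the eosinophil median -0.15 without control replicate 0. The part of muscle and fat RNA in the values of the macrophage genes was not tested.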

How the data were processed

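Whole skin of 3 JunBΔep and 3 control mice was analysed. The authors prepared stranded poly(A) libraries, aligned reads to mm9 with TopHat 2.0.10, Bowtie 1.0.0 and SAMtools 0.1.19 in the nextpresso pipeline, and deposited FPKM values per gene. Cufflinks is named in the submitters' processing notes with no role. Their own test used DESeq2 on counts, which were not analysed here.

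Groups came from the genotype labels. Values were transformed to log2(FPKM + 0.5) and tested two-sided with limma 3.58.1 (R 4.3.3, intensity trend, no block) over genes averaging 0.1 FPKM or more. Benjamini-Hochberg adjusted values were held against 0.05. The fit was tested on simulated data, and differences of 1 on the log2 scale were not recovered there. A gene that did not pass may therefore still differ. Tables and figures used Python 3.11.15, pandas 2.3.3 and matplotlib 3.10.9. Without read counts, no counting error is given.

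The 10 genes and all lists were chosen with earlier results of these data known. Named from the lists were genes that passed the threshold, genes with no overlap and an unadjusted p below 0.05 (muscle genes are given as a count), a fixed set of partners and paralogs, and for each gene the 3 closest patterns among genes averaging 1 FPKM or more, of which some are given. GENCODE vM1 gave gene positions on mm9. Promoter windows are from RefSeq on GRCm38.p6. Ly6g, Siglecf and Trac were not used here.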

Additional observations from a re-analysis of the deposited data

How the results depend on the processing

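None of the 10 genes passed the threshold in limma under any alternative run: a pseudocount of 0.1 or 1, no filter or a filter of 1 FPKM, 3 other scalings, no trend, a robust fit, a replicate block, a block on the number series, or leaving out each mouse. The smallest adjusted p of a member was 0.0698, for Cd209f without JunBΔep replicate 2, and its range over the alternatives was 0.0698 to 0.926. The genes called overall were less stable. Against 235 in the fit reported, 0 were called with the replicate block and 0 with the block on the number series, with 854 and 1077 lower at an unadjusted p below 0.05. Leaving out 1 mouse gave 0 to 254, with 0 without any one control or JunBΔep replicate 1, 135 without the library labelled JunBΔep replicate 0 and 254 without JunBΔep replicate 2. Calls in the higher direction numbered 10 without the library labelled JunBΔep replicate 0 and 0 in every other run. At an unadjusted p below 0.05, 1842 genes were lower and 1282 higher without JunBΔep replicate 2. The fit reported had 1044 and 243. The cause was not tested. Among the other genes of the macrophage lists 0 to 2 were called, the 2 without JunBΔep replicate 2 being Cd209a (-2.32, adjusted p 0.0450) and Cd209d (-2.55, adjusted p 0.0210). Deviations of same-numbered mice correlated at 0.12, -0.23 and -0.43 across genes, and those of differently numbered mice at -0.37 to 0.46. These values gave no sign of pairing by number. They cannot decide whether mice were paired, since tissue markers also differed widely between them.

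Fold changes turned sign as follows, with the cause not tested. Leaving out 1 mouse gave -0.76 to 0.85 for Arg1, -1.98 to 1.78 for Chil3 and -0.62 to 0.45 for Cd68, and without a change of sign -0.89 to -0.01 for Csf1r, -1.06 to -0.25 for Emr1 and -1.02 to -0.20 for Mrc1. The block on the number series gave 1.21 for Chil3 and 0.29 for Cd68. Within the lower number series the values were 1.97 for Chil3, 0.027 for Mrc1, 0.14 for Csf1r and 1.08 for Cd68, and within the higher one 0.007 for Retnla, -0.53 for Arg1 and 0.44 for Chil3. Divided by Csf1r or by C1q of the same mouse, an alternative added after seeing the data, Chil3 gave 0.265 and 0.07 and Cd68 0.494 and 0.299. The unknown depth limits what can be read from values near 0, such as those of Chil3. Counts and medians of the gene lists without the library labelled JunBΔep replicate 0 or control replicate 0 were added after seeing the data and are given beside several of the lists.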
